A study of Mus musculus with 19 samples.

Results

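Galectins are proteins that bind beta-galactoside sugars, and 4 of their genes, Lgals1, Lgals3, Lgals8 and Lgals9, are described here together with Lgals3bp, which encodes a secreted glycoprotein that binds galectin-3 and is not a galectin. The 5 genes were taken by symbol from 2 deposited tables of 23951 genes each, and all 5 passed a filter at a mean of 1 FPKM in each table, as did 10894 and 10845 genes of the tables at 4.5 and 3 months. FPKM is a fragment count divided by transcript length and by the mapped fragments of the library. RNA came from microglia, the resident macrophages of the brain, which were sorted from mouse hippocampus on the surface markers CD11b and CD45. The 15 libraries form 5 groups of 3.

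At 4.5 months the groups were CK-p25 PU.1 cKO (Cx3cr1CreER+/-, CK-p25 and PU.1 fl/fl), CK-p25 (Cx3cr1CreER+/- and CK-p25, without the floxed alleles) and CK (Cx3cr1CreER+/- and CK littermates, the controls). All 3 groups carried the inducible Cre and were given tamoxifen at 50 mg/kg on 5 days when p25 was induced, and tissue was taken 6 weeks later. At 3 months the groups were PU.1 cKO (PU/1 fl/fl with Cx3cr1CreER+/-) and control (Cx3cr1CreER+/-), both given the same tamoxifen course and collected 1 week after it. In CK-p25 mice p25, an activator of the kinase Cdk5, is expressed in forebrain neurons and neurons are lost, which makes them a model of neurodegeneration. Cx3cr1 is also active in border macrophages and monocytes, so the Cre is not restricted to microglia. PU.1, encoded by Spi1, is a transcription factor that macrophages need.

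Galectin-1 and galectin-3 are small soluble lectins that cells secrete by a route other than the secretory pathway, and galectin-3 is a widely used marker of activated microglia. Galectin-8 and galectin-9 each join a pair of sugar-binding domains in a single chain. Inside cells, galectins bind sugars that become exposed when the membrane of an endosome or lysosome breaks, and galectin-8 then recruits autophagy receptors in human cells. Lgals3bp and Lgals9 are known in human cells as genes that interferons induce.

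For the 3-month libraries the labels contradict each other. By the description field, data columns with PU.1 in their name belong to samples with a control title, whereas the source name puts PU.1 on the samples with a PU.1 cKO title. The titles were followed, with the columns that the description field assigns to them. In the other reading the name of a data column gives its genotype, and the sign of each 3-month difference is turned. Spi1 went against the titles, with 409, 338 and 337 FPKM in libraries labelled PU.1 cKO, against 261, 105 and 248 FPKM in libraries labelled control (log2 difference 0.92 ± 0.35 SE, limma adjusted p = 0.0853). At 4.5 months Spi1 had 165, 152 and 224 FPKM in libraries of CK-p25 PU.1 cKO, against 251, 208 and 298 FPKM in CK-p25 libraries and 257, 230 and 251 FPKM in CK libraries. The log2 difference of CK-p25 PU.1 cKO from CK-p25 was -0.49 ± 0.17 (SE) and did not pass after adjustment (adjusted p = 0.745).

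The microglial marker genes P2ry12 and Tmem119 were detected in every library. P2ry12, a purinergic receptor gene, averaged 808 ± 35.5 FPKM in CK-p25 PU.1 cKO, 900 ± 158 FPKM in CK-p25 and 3871 ± 373 FPKM in CK (SD, n = 3 each). Tmem119 averaged 1114 ± 165 FPKM in CK-p25 PU.1 cKO, 992 ± 152 FPKM in CK-p25 and 2949 ± 67.9 FPKM in CK. At 3 months P2ry12 averaged 3659 ± 424 FPKM in libraries labelled PU.1 cKO and 724 ± 141 FPKM in libraries labelled control, and Tmem119 averaged 4100.2 ± 539 FPKM in libraries labelled PU.1 cKO and 2027 ± 768 FPKM in libraries labelled control. CK-p25 replicate 3 stands apart, as its label carries a run name that no other library at 4.5 months has, 42.1% of genes are listed at 0 in it, and it holds 19.1% of the variation within groups. The other libraries at that age had 31.6% to 36.4% of genes at 0. CK-p25 replicate 2 held the next largest share of that variation, 14.7%. It also had the highest sum of neutrophil markers at 4.5 months, 840.6 FPKM. Labelled control replicate 1 stands apart at 3 months, with 7 neutrophil markers summing to 16225 FPKM. Read depth is unknown, since FPKM is not a count. Low values placed the worth of a single read within 0.884 to 0.999 of the first library for 7 libraries at 4.5 months and within 0.764 to 1.00 for the 3-month libraries, and gave no clear value for CK-p25 replicate 3.

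Windows of 250 bases from 3 genes that end at the RefSeq start of each gene (GRCm38.p6, gene strand, 5′ to 3′) are shown, because Lgals3 and Lgals3bp moved together at 4.5 months and Lgals9 did not pass the test beside them. Of the 5 genes, 4 had a window in the RefSeq table. Capitals mark matches to AANNGAAA (an interferon regulatory factor element) and to the interferon-stimulated response element, searched as GAAA, any 2 bases and GAAA, on both strands.
Lgals3bp, chr11:118401960-118402209, minus strand: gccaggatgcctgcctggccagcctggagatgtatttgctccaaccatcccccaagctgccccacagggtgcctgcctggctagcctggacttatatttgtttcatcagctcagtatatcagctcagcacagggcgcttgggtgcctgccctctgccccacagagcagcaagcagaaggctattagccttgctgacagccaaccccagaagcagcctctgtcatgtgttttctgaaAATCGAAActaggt
Lgals3, chr14:47373610-47373859, plus strand: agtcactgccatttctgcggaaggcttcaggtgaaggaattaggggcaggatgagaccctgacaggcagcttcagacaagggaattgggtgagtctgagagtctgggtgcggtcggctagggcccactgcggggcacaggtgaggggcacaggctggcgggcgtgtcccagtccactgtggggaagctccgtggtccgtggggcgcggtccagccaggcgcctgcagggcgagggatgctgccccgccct
Lgals9, chr11:78984925-78985174, minus strand: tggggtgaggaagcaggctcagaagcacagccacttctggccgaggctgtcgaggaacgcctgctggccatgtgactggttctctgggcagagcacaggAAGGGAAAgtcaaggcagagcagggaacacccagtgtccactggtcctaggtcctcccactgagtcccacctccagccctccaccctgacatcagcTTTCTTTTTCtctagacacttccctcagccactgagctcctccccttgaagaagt

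The window of Lgals3bp held 1 match to AANNGAAA, whose first base lies 14 bases before the start. The window of Lgals9 held the interferon-stimulated response element 55 bases before the start, where AANNGAAA overlaps it, and a further AANNGAAA 151 bases before the start. Another match to each element reached past the start of Lgals9 and is not counted in its window. The windows of Lgals3 and Lgals8 held neither. The 32851 RefSeq promoters run from 250 bases before to 50 after the start, and only the 250 before it were searched for the shares. Of these promoters, 21.3% held AANNGAAA and 2.98% held the interferon-stimulated response element. None of the 4 windows held TTCNNNGAA (a STAT element, in 7.02% of promoters), GAGGAAGT (a PU.1 element, 2.44%), TGANTCA (an AP-1 element, 6.75%) or CACGTG (an E-box, 6.02%), and a match or its lack says nothing of whether a factor binds there.

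The comparison of CK-p25 with CK asks how these genes differ in microglia of the degenerating hippocampus. Lgals3 and Lgals3bp were far higher in CK-p25, while Lgals1, Lgals8 and Lgals9 did not pass the test. Of the 5 genes, 2 rose and 0 fell at an adjusted p under 0.05, where 17.6% of all genes tested rose and 13.7% fell (1922 and 1490 genes, or 1634 and 1947 after quantile normalization). The groups did not overlap for the same 2 genes, against 46.5% of all genes tested.

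Lgals3, which encodes galectin-3, had 90.4, 79.0 and 79.5 FPKM in CK-p25 libraries, against 4.47, 6.56 and 5.54 FPKM in CK libraries. Every CK-p25 library was above every CK library. The means were 83 ± 6.45 FPKM in CK-p25 and 5.52 ± 1.05 FPKM in CK (SD, n = 3 each), a ratio of 15.03. The log2 difference was 3.70 ± 0.14 (SE; 95% interval 3.39 to 4.01; limma adjusted p = 2.75e-06), which ranked 57 from the highest of 10894 genes. Without CK-p25 replicate 3 it was 3.73.

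Lgals3bp, which encodes the galectin-3 binding protein, had 1964, 1778 and 1978 FPKM in CK-p25 libraries, against 135, 138 and 130 FPKM in CK libraries. The groups were far apart and the spread within each was small. The means were 1907 ± 112 FPKM in CK-p25 and 134 ± 4.26 FPKM in CK (SD, n = 3 each), a ratio of 14.2. On the log2 scale the difference was 3.82 ± 0.12 (SE; 95% interval 3.54 to 4.10; limma adjusted p = 1.36e-06) and ranked 51. Without CK-p25 replicate 3 it was 3.79.

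Lgals9, a tandem-repeat galectin and a ligand of the receptor TIM-3, had 426, 383 and 522 FPKM in CK-p25 libraries, against 385, 318 and 321 FPKM in CK libraries. The ranges overlapped by 1 library on each side. Its log2 difference was 0.37 ± 0.15 (SE; 95% interval 0.04 to 0.71; limma adjusted p = 0.0869) and was -0.09 after quantile normalization. Lgals8, the tandem-repeat galectin that marks broken endosomes, had 45.2, 41.3 and 52.0 FPKM in CK-p25 libraries, against 44.5, 47.0 and 45.7 FPKM in CK libraries. The log2 difference was 0.01 ± 0.11 (SE; 95% interval -0.25 to 0.26; limma adjusted p = 0.968), and its sign turned with the scaling.

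Lgals1, which encodes galectin-1, had 14.0, 17.2 and 8.99 FPKM in CK-p25 libraries, against 5.03, 11.7 and 13.9 FPKM in CK libraries. The ranges overlapped widely, and the log2 difference was 0.42 ± 0.51 (SE; 95% interval -0.74 to 1.58; limma adjusted p = 0.564). It was 0.023 without CK replicate 1, 0.23 without CK-p25 replicate 2, 0.66 without CK-p25 replicate 3 and 0.675 without CK replicate 3. The interval holds both no change and a rise of more than 1.5 on the log2 scale, so a moderate difference of Lgals1 was not detectable against the spread of these libraries. Reads of Lgals1 may be shared with its pseudogenes, of which the gene table names 2, and how the authors' counting treated them is not given in the sources used here.

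Markers of other cells were set beside the 5 genes in the same comparison, where 17.6% of all genes tested rose and 13.7% fell. Astrocyte markers (8 of 8 in the table) summed to between 86.9 and 309 FPKM in CK-p25, against 48.1 to 68.2 FPKM in CK. Of the 7 tested, Gfap alone passed, at 87.4 FPKM in CK-p25 and 2.74 FPKM in CK (log2 difference 4.02 ± 0.85 SE, limma adjusted p = 0.00829). Monocyte markers (10 of 10) summed to between 19.8 and 96.8 FPKM in CK-p25, against 8.38 to 25.7 FPKM in CK, and 2 of 8 tested rose, Fn1 and Itgal. Border macrophage markers (8 of 8) summed to between 131 and 193 FPKM in CK-p25, against 7.81 to 336 FPKM in CK, and 1 of 8 tested rose, Siglec1. Neutrophil markers (7 of 8 in the table) summed to 0.0216, 840.6 and 1.79 FPKM in the CK-p25 libraries, and Lgals3 and Lgals3bp were not highest in the library with 840.6 FPKM. No marker of these 4 lists was at 0 in every library of a group. Of endothelium markers, 2 of 5 tested rose and 1 fell, and of oligodendrocyte markers 1 of 7 tested rose. Of 3 neuron and 4 lymphocyte markers tested, 0 passed. The part of astrocytes and monocytes in the result was not tested, and in sorted bulk RNA a change in the number of cells of a type cannot be told apart from a change in RNA per cell.

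**Figure D1:**
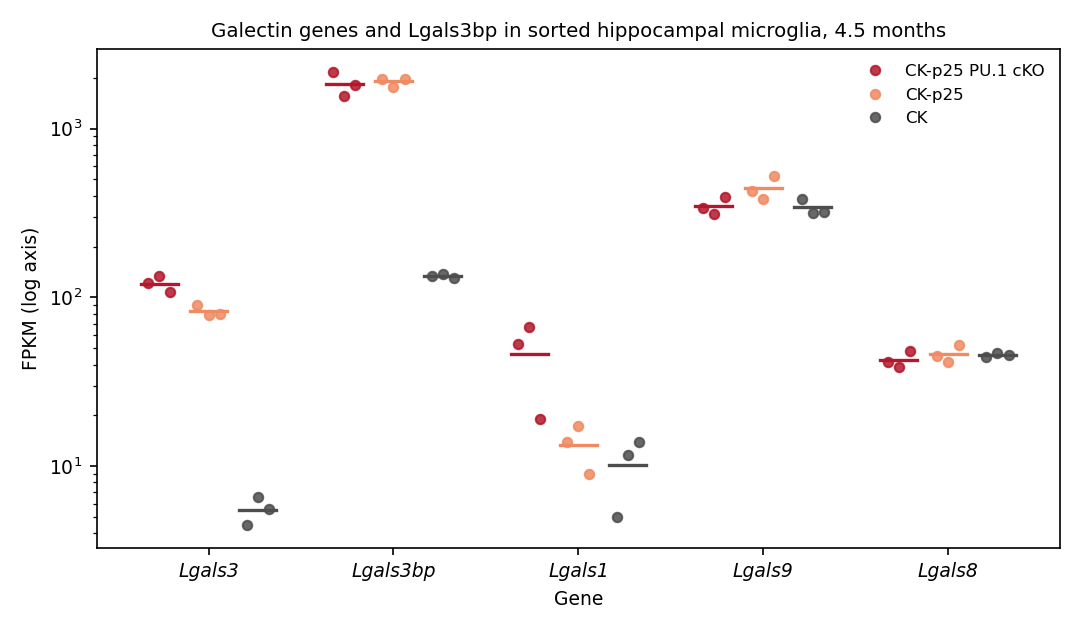
FPKM of the 5 genes (log axis) in each of the 9 libraries at 4.5 months, as points, with the group mean as a line, for CK-p25 PU.1 cKO, CK-p25 and CK. Lgals3 and Lgals3bp lie above all CK libraries in both CK-p25 groups, Lgals1 is spread widest, and Lgals9 and Lgals8 lie at similar levels in the 3 groups.

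The comparison of CK-p25 PU.1 cKO with CK shares its CK libraries with the one above. Lgals3, Lgals3bp and Lgals1 were higher in CK-p25 PU.1 cKO, and Lgals8 and Lgals9 did not pass the test. Of the 5 genes, 3 rose and 0 fell, where 17.8% of all genes tested rose and 13.3% fell (1937 and 1447 genes, or 1702 and 2003 after quantile normalization). The groups did not overlap for these 3 genes, against 58.5% of all genes tested.

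Lgals3 had 121, 133 and 107 FPKM in libraries of CK-p25 PU.1 cKO, with a mean of 120.4 ± 13.1 FPKM, against 5.52 ± 1.05 FPKM in CK (SD, n = 3 each). Lgals3 thus differed by 4.23 ± 0.14 on the log2 scale (SE; 95% interval 3.91 to 4.54; limma adjusted p = 1.54e-06) and this ranked 37 from the highest. Lgals3bp had 2171, 1558 and 1819 FPKM in libraries of CK-p25 PU.1 cKO, a ratio of means of 13.8 over CK. Its log2 difference was 3.76 ± 0.12 (SE; 95% interval 3.48 to 4.04; limma adjusted p = 1.54e-06) and ranked 60. The ratio of means over CK was larger for Lgals3, at 21.8.

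Lgals1 had 52.6, 66.9 and 19.1 FPKM in libraries of CK-p25 PU.1 cKO, against 5.03, 11.7 and 13.9 FPKM in CK libraries. Replicate 3 lay closest to CK, and the groups did not overlap. Its log2 difference was 2.0 ± 0.51 (SE; 95% interval 0.84 to 3.16; limma adjusted p = 0.0176). It no longer passed when replicate 1 of CK-p25 PU.1 cKO was left out (1.82, adjusted p = 0.0672), nor when replicate 2 of that group was (1.65, adjusted p = 0.0642), nor without CK replicate 1 (1.61, adjusted p = 0.0656).

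Markers of border macrophages and monocytes did not share an order over the libraries, and those named here were picked out after their values were seen. Ms4a7, a border macrophage marker, had 85.9, 115.5 and 35.1 FPKM in libraries of CK-p25 PU.1 cKO, against 1.11, 23.7 and 23.8 FPKM in CK libraries. Fn1, which encodes fibronectin and stands in the monocyte list, had 28, 21.6 and 5.71 FPKM in libraries of CK-p25 PU.1 cKO, against 0.128, 0.720 and 0.190 FPKM in CK libraries. Replicate 3 of CK-p25 PU.1 cKO and replicate 1 of CK, the lowest in Lgals1 of their groups, were also the lowest in Ms4a7 and Fn1. In CK-p25, Ms4a7 was highest in replicate 3 (41.0 FPKM), where Lgals1 was lowest, while Fn1 was lowest there (1.94 FPKM). Mrc1, the mannose receptor gene of border macrophages, had 10.9, 54.6 and 31.3 FPKM in libraries of CK-p25 PU.1 cKO, and Pf4 and F13a1 were likewise lowest in replicate 1 of that group. Ly6c2, a monocyte marker, had 1.38, 17.0 and 25.5 FPKM in the same libraries and was thus highest in replicate 3. In the CK group, replicate 1 was lowest in Mrc1, Pf4, F13a1 and Ly6c2 too. In the CK-p25 group, replicate 3 was lowest in Mrc1, Pf4 and Ly6c2, but not in F13a1. Ccr2, the chemokine receptor of classical monocytes, averaged 4.26 ± 1.85 FPKM in CK-p25 PU.1 cKO and 4.97 ± 2.41 FPKM in CK (SD, n = 3 each), and the groups overlapped (log2 difference -0.16 ± 0.36 SE, limma adjusted p = 0.771).

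The summed border macrophage markers were 178, 510 and 255 FPKM in libraries of CK-p25 PU.1 cKO, against 7.81, 285 and 336 FPKM in CK libraries. The summed monocyte markers were 55.5, 82.0 and 85.3 FPKM in libraries of CK-p25 PU.1 cKO, against 8.38, 25.7 and 19.4 FPKM in CK libraries. Neutrophil markers summed to between 27.0 and 168.6 FPKM for CK-p25 PU.1 cKO and between 0.163 and 123 FPKM in CK. Astrocyte markers summed to between 91.1 and 192 FPKM for CK-p25 PU.1 cKO and between 48.1 and 68.2 FPKM in CK, and 2 of the 7 tested rose, Gfap and Aldh1l1. Over all genes tested in this comparison, 17.8% rose and 13.3% fell. The part of these cells in the Lgals1 result was not tested.

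Lgals9 had 339, 311 and 396 FPKM in libraries of CK-p25 PU.1 cKO, a log2 difference from CK of 0.03 ± 0.15 (SE; limma adjusted p = 0.905) that was -0.38 after quantile normalization. Lgals8 had 41.3, 38.6 and 48.1 FPKM in libraries of CK-p25 PU.1 cKO, a log2 difference from CK of -0.10 ± 0.11 (SE; limma adjusted p = 0.521).

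The comparison of CK-p25 PU.1 cKO with CK-p25 asks what loss of PU.1 changes within CK-p25. None of the 5 genes passed the test, and neither did any of the 10894 genes with limma (0% higher and 0% lower), while 671 genes had an unadjusted p under 0.05, or 6.16%. After quantile normalization 1 gene was higher and 0 were lower, and still 0 of the 5 genes passed. Lgals1 and Lgals3 did not overlap between the groups, which held for 9.38% of all genes tested. The log2 difference of Lgals1, at 52.6, 66.9 and 19.1 FPKM with the PU.1 cKO and 14.0, 17.2 and 8.99 FPKM in CK-p25 alone, was 1.58 ± 0.51 (SE; 95% interval 0.42 to 2.74; limma adjusted p = 0.745). That of Lgals3, at 121, 133 and 107 FPKM with the PU.1 cKO and 90.4, 79.0 and 79.5 FPKM in CK-p25 alone, was 0.53 ± 0.14 (SE; 95% interval 0.22 to 0.84; limma adjusted p = 0.745).

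For both genes 3 of 3 CK-p25 PU.1 cKO libraries were above every CK-p25 library, and without CK-p25 replicate 3 the log2 differences were 1.34 for Lgals1 and 0.50 for Lgals3. The log2 difference of Lgals9 was -0.34 ± 0.15 (SE; 95% interval -0.68 to -0.01; limma adjusted p = 0.745), that of Lgals8 was -0.11 ± 0.11 and that of Lgals3bp was -0.06 ± 0.12. Without CK-p25 replicate 3, that of Lgals9 was -0.22, that of Lgals8 was -0.025 and that of Lgals3bp was -0.028. The 95% interval for Lgals3bp, -0.34 to 0.23, leaves room for a small change in either direction.

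The comparison of libraries labelled PU.1 cKO with libraries labelled control at 3 months asks what loss of PU.1 changes without p25. Lgals1 and Lgals3 were lower and Lgals8 was higher in libraries labelled PU.1 cKO, while Lgals3bp and Lgals9 did not pass the test. Of the 5 genes, 2 fell and 1 rose, where 17.8% of all genes tested fell and 12.4% rose (1925 and 1344 genes, 1649 and 1713 after median centring, or 1853 and 2086 after quantile normalization). The groups did not overlap for these 3 genes, against 48.8% of all genes tested. If the names of the data columns are right in place of the description field, each of these directions is turned.

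Lgals1 had 8.05, 8.0 and 13.9 FPKM in libraries labelled PU.1 cKO, against 104, 177 and 272 FPKM in libraries labelled control. The highest library labelled PU.1 cKO was far below the lowest labelled control. The log2 difference was -4.02 ± 0.37 (SE; 95% interval -4.88 to -3.15; limma adjusted p = 0.00058), which ranked 63 from the lowest of 10845 genes. Without labelled control replicate 1 it was -4.37.

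Lgals3 had 11.3, 5.51 and 12.1 FPKM in libraries labelled PU.1 cKO, against 107, 26.8 and 56.4 FPKM in libraries labelled control. The groups did not overlap, and both were widely spread. The log2 difference was -2.45 ± 0.50 (SE; 95% interval -3.63 to -1.28; limma adjusted p = 0.0112). It was -1.97 without labelled control replicate 1 (adjusted p = 0.0357), and the call was lost without labelled PU.1 cKO replicate 2 (-2.13, adjusted p = 0.0609).

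Lgals8 had 72.1, 54.8 and 54.5 FPKM in libraries labelled PU.1 cKO, against 29.7, 28.1 and 18.3 FPKM in libraries labelled control. The groups were apart, with a log2 difference of 1.24 ± 0.23 (SE; 95% interval 0.70 to 1.78; limma adjusted p = 0.00805) that was 1.36 without labelled control replicate 1. Lgals3bp had 286, 265 and 323 FPKM in libraries labelled PU.1 cKO, against 247, 317 and 236 FPKM in libraries labelled control, a difference of 0.14 ± 0.19 (SE; adjusted p = 0.606). Lgals9 had 591, 486 and 517 FPKM in libraries labelled PU.1 cKO, against 542, 371 and 627 FPKM in libraries labelled control, a difference of 0.08 ± 0.24 (SE; adjusted p = 0.820). For both the ranges overlapped.

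**Figure D2:**
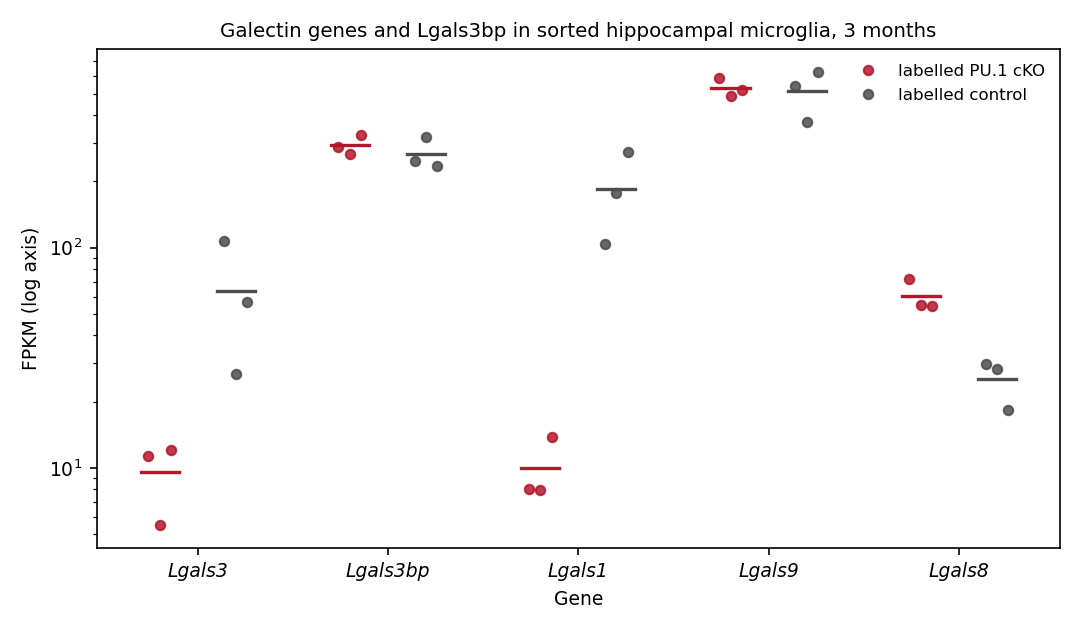
FPKM of the 5 genes (log axis) in each of the 6 libraries at 3 months, as points, with the group mean as a line, for libraries labelled PU.1 cKO and libraries labelled control. Lgals1 and Lgals3 lie lower and Lgals8 lies higher in libraries labelled PU.1 cKO, and the groups overlap for Lgals3bp and Lgals9.

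The same libraries differed in markers of other cells. Monocyte markers summed to 38.6, 13.4 and 49.1 FPKM in libraries labelled PU.1 cKO, against 1078, 201 and 148 FPKM in libraries labelled control. Border macrophage markers summed to 314, 320 and 385 FPKM in libraries labelled PU.1 cKO, against 527, 1654 and 683 FPKM in libraries labelled control. Neutrophil markers summed to 374, 49.7 and 157 FPKM in libraries labelled PU.1 cKO, against 16225, 123 and 93.9 FPKM in libraries labelled control. By the test, 3 of 9 monocyte, 4 of 8 border macrophage and 0 of 7 neutrophil markers tested were lower, and 0 were higher. Over all genes tested, 17.8% were lower and 12.4% higher.

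S100a4, a calcium-binding protein gene of the monocyte list that was picked out after its values were seen, had 0.427, 1.92 and 5.17 FPKM in libraries labelled PU.1 cKO, against 46.8, 131 and 55.2 FPKM in libraries labelled control. The ranges of Ccr2 and Ly6c2, which are in the same list, overlapped between the groups. Labelled control replicate 1, with the highest neutrophil and monocyte sums, had the highest Lgals3 and the lowest Lgals1 of its group. Astrocyte markers summed to between 64.0 and 72.0 FPKM in libraries labelled PU.1 cKO and between 16.1 and 32.3 FPKM in libraries labelled control, and most of that sum was Slc1a3, a glutamate transporter gene, at 63.1 FPKM in libraries labelled PU.1 cKO and 11.7 FPKM in libraries labelled control. Of the 4 astrocyte markers tested, Slc1a3 was the 1 that passed, and the list median was -0.32. Over all genes tested at 3 months, 12.4% were higher and 17.8% lower in libraries labelled PU.1 cKO. P2ry12 and Tmem119 were higher in all 3 libraries labelled PU.1 cKO than in any labelled control. The part of these cells in the results for Lgals1, Lgals3 and Lgals8 was not tested.

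**Figure D3:**
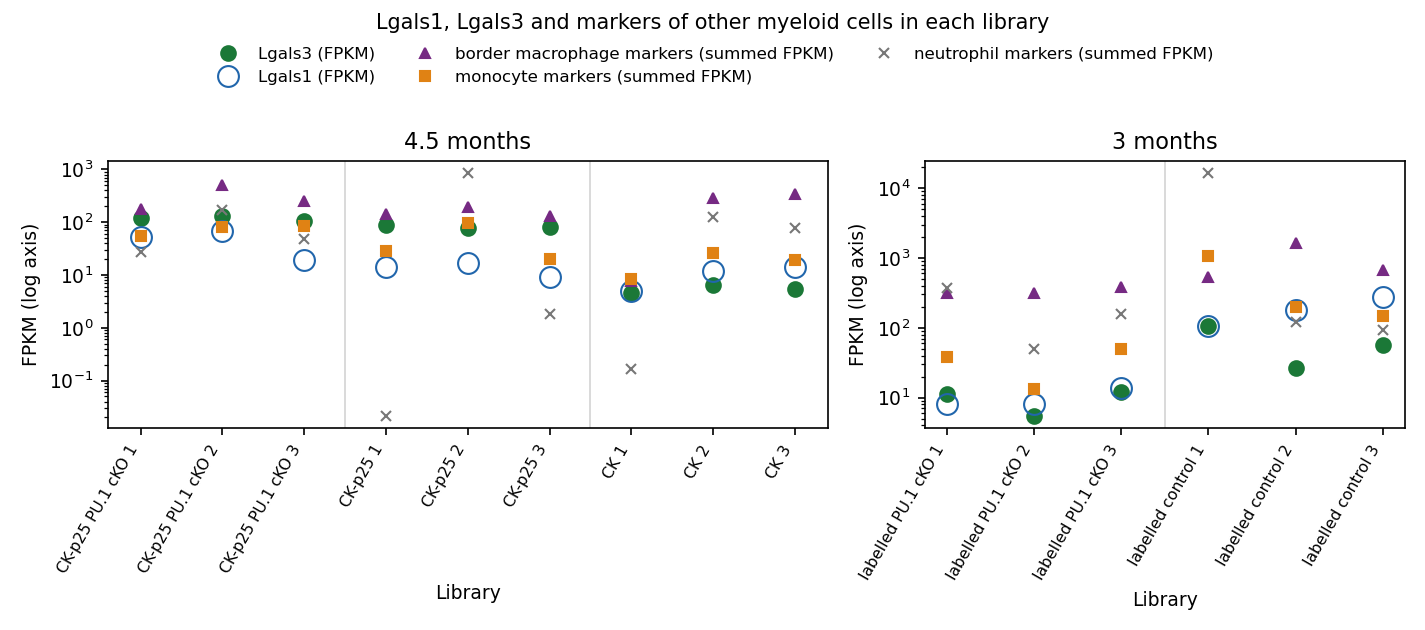
FPKM of Lgals1 (open circles) and Lgals3 (filled circles) beside the summed FPKM of border macrophage, monocyte and neutrophil markers (log axis) in each library, at 4.5 months on the left and 3 months on the right. At 3 months Lgals1 and Lgals3 lie lower in all 3 libraries labelled PU.1 cKO, and so do the monocyte and border macrophage sums.

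**Figure D4:**
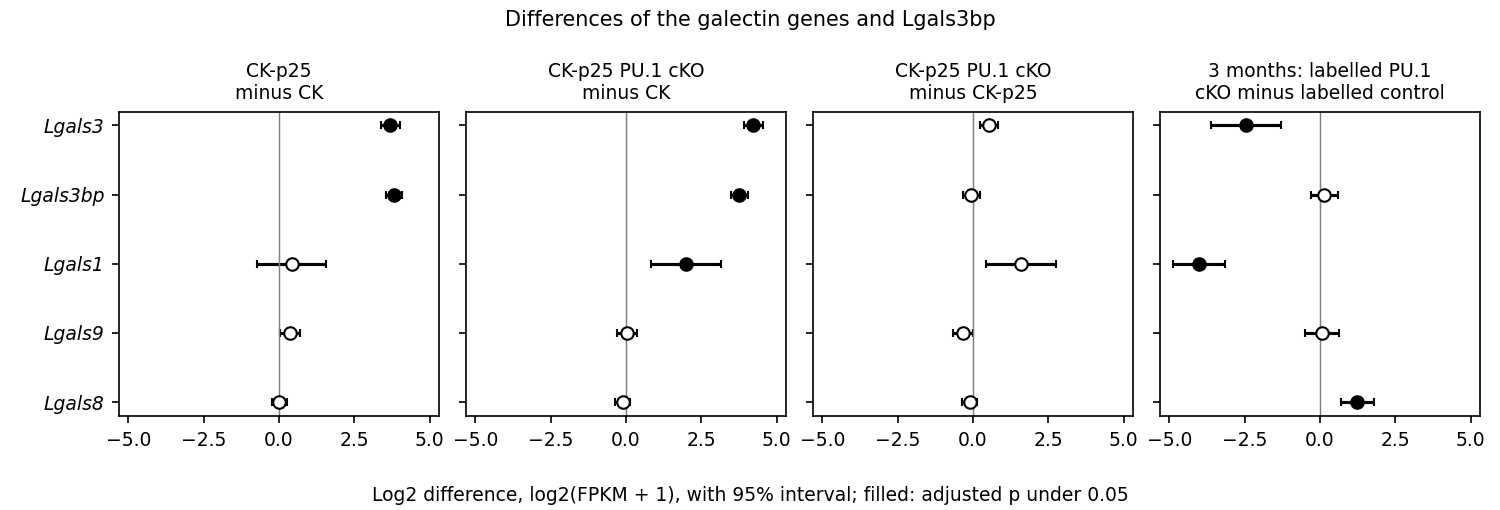
Log2 difference of each gene in the 4 comparisons on the log2(FPKM + 1) scale, as points with 95% intervals, filled at a limma adjusted p under 0.05. Lgals3 and Lgals3bp are filled in both comparisons with CK, Lgals1 in CK-p25 PU.1 cKO against CK, and Lgals1, Lgals3 and Lgals8 at 3 months, where the other reading of the labels turns the sign.

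The order of the genes by level differed between groups, on the FPKM scale, which is per length. In CK-p25 PU.1 cKO it ran Lgals3bp, Lgals9, Lgals3, Lgals1 and Lgals8, with overlap between the last pair. In CK-p25 it ran Lgals3bp, Lgals9, Lgals3, Lgals8 and Lgals1, with no overlap between neighbours. In CK it ran Lgals9, Lgals3bp, Lgals8, Lgals1 and Lgals3, with overlap between the last pair.

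At 3 months it ran Lgals9, Lgals3bp, Lgals8, Lgals1 and Lgals3 in libraries labelled PU.1 cKO, with overlap between Lgals1 and Lgals3. In libraries labelled control it ran Lgals9, Lgals3bp, Lgals1, Lgals3 and Lgals8, with overlap between all neighbours but the first pair. Lgals3bp made up 76.8% of the summed FPKM of the 5 genes in CK-p25 PU.1 cKO, 76.5% in CK-p25 and 25% in CK, while Lgals9 made up 14.5%, 17.8% and 63.5% in the same groups.

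A factor applied to a whole library leaves the ratios within it as they are, whereas quantile normalization does not. The ratio of Lgals3bp to Lgals9 was 6.41, 5.01 and 4.59 in CK-p25 PU.1 cKO libraries and 4.61, 4.65 and 3.79 in CK-p25 libraries, against 0.350, 0.435 and 0.405 in CK libraries. Lgals3bp thus exceeded Lgals9 in all 6 libraries with p25 and in none of the 3 without it. The ratio of Lgals3 to Lgals3bp was 0.0558, 0.0855 and 0.0588 in CK-p25 PU.1 cKO libraries and 0.0461, 0.0444 and 0.0402 in CK-p25 libraries, against 0.0332, 0.0473 and 0.0426 in CK libraries. These values of CK-p25 and CK overlapped. At 3 months this ratio was 0.0395, 0.0208 and 0.0376 in libraries labelled PU.1 cKO. In libraries labelled control it was 0.435, 0.0845 and 0.239.

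Within groups at 4.5 months, Lgals1 varied most of the 5 genes. The SD within groups of its log2 values was 0.719, larger than that of 95.3% of 5820 genes that averaged 10 FPKM or more, whose median was 0.169. The other 4 genes lay between 0.133 and 0.189. At 3 months Lgals3 varied most, with an SD of 0.799, and Lgals1 had 0.568, while the median of 6206 genes was 0.282.

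The genes whose log2 values followed each of the 5 most closely over the 9 libraries at 4.5 months were found among 5819 other genes that averaged 10 FPKM or more. These correlations describe libraries that share groups, and they carry no test. For Lgals3bp they were Cd63 (a tetraspanin of endosomes), Adap1, Clec7a (the receptor Dectin-1) and Ctsb (the lysosomal protease cathepsin B), all with a Pearson r of 0.998. Clec7a averaged 622 FPKM in CK-p25 PU.1 cKO, 561 FPKM in CK-p25 and 23.3 FPKM in CK.

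For Lgals3 the closest were Cd274 (the checkpoint ligand PD-L1, r = 0.996), Hpse (heparanase, 0.996), Hps1 (0.995) and Serp1 (0.994). Hpse averaged 68.4 FPKM in CK-p25 PU.1 cKO, 38.6 FPKM in CK-p25 and 0.722 FPKM in CK, so like Lgals3 its mean was highest in CK-p25 PU.1 cKO. For Lgals1 they were Colec12 (a scavenger receptor, r = 0.982), Lsp1 (0.979), Stom (0.972) and Cp (the copper protein ceruloplasmin, 0.952). Cp averaged 66.1 FPKM in CK-p25 PU.1 cKO, 11.3 FPKM in CK-p25 and 3.30 FPKM in CK.

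For Lgals8 the genes given here are Sh3tc1 (r = 0.954), Evl (0.948) and Ntpcr (0.923). For Lgals9 they were Slc25a5 (an ADP/ATP carrier of mitochondria, r = 0.971), Nubp1 (0.957), Gm16897 (0.953) and Spint1 (0.946). Among the 5 genes themselves the closest pair was Lgals3 and Lgals3bp, with r = 0.99.

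The other galectin genes in the tables were at or near 0. Of 7 listed, Lgalsl alone passed the filter at 4.5 months, with a mean of 1.66 FPKM in CK-p25 and 1.38 FPKM in CK (log2 difference 0.13, adjusted p = 0.644), and none passed at 3 months. Lgals7 was listed at 0 in all 15 libraries. Reads of the near-identical pair Lgals4 and Lgals6 may be split by the authors' counting, and the highest value of either in any library was 1.10 FPKM.

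Receptors and ligands that galectins bind were taken from a list of 23 genes. In CK-p25 against CK, 10 of 19 tested rose and 2 fell, with a median log2 difference of 0.53, against 0 for all genes tested, of which 17.6% rose and 13.7% fell. The share of falls in the list was thus no higher than over all genes. Pdcd1, which encodes the checkpoint receptor PD-1, averaged 127 FPKM in CK-p25 and 10.5 FPKM in CK (3.53 ± 0.35 SE, adjusted p = 0.000223). Lag3, another checkpoint receptor, averaged 154 FPKM in CK-p25 and 25.5 FPKM in CK (2.49 ± 0.31 SE). The falls were Vsir, the checkpoint receptor VISTA, listed as 4632428N05Rik (-1.03 ± 0.20 SE), and Tlr4, the endotoxin receptor (-0.82 ± 0.08 SE).

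Trem2, a lipid receptor of microglia that galectin-3 binds, was picked out after its values were seen. It averaged 2040 FPKM in CK-p25 and 1056 FPKM in CK (0.95 ± 0.14 SE, adjusted p = 0.00131). The same list had 10 rises and 3 falls in CK-p25 PU.1 cKO against CK, with Pdcd1 at 3.29 and Lag3 at 1.58, and the median was 0.77 (17.8% of all genes rose and 13.3% fell). At 3 months 8 of 20 tested were higher and 5 lower in libraries labelled PU.1 cKO (median 0.24, against -0.03 for all genes, of which 12.4% were higher and 17.8% lower). There Lag3 was at 4.03, Trem2 at 2.23, Vsir at 1.68, Tlr4 at 1.11 and Pdcd1 at -1.09.

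Enzymes that build or cap the glycans galectins bind were a list of 19 genes. In CK-p25 against CK, 3 of 17 tested rose and 4 fell, with a median of -0.29, or 5 and 7 without CK-p25 replicate 3. Over all genes tested 17.6% rose and 13.7% fell, and the share of rises in this list was near that. The shares over all genes given for the lists are from the fits of all libraries. None was taken without a library, so the counts without a library have no matching share. Gcnt2, which branches poly-lactosamine chains, averaged 50.4 FPKM in CK-p25 and 13.5 FPKM in CK (1.85 ± 0.25 SE), and C1galt1c1, the chaperone of the core O-glycan galactosyltransferase, was at 0.70 ± 0.19. The larger falls were Mgat4a, a branching enzyme of N-glycans (-1.27 ± 0.36 SE), and St3gal6, a sialyltransferase that caps galactose (-1.11 ± 0.09 SE). With CK-p25 PU.1 cKO against CK, 1 gene rose and 5 fell (5 and 9 without CK-p25 replicate 3, median -0.38; all genes 17.8% and 13.3%), with Gcnt2 at 1.93 and St3gal6 at -0.82. At 3 months 4 were higher and 2 lower (2 and 1 without labelled control replicate 1, median 0.11; all genes 12.4% and 17.8%), with St3gal6 at 0.81 and Gcnt2 at -1.54.

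Genes of the response to broken lysosomes were a list of 25. In CK-p25 against CK, 8 of 23 tested rose and 2 fell, with a median of 0.22, or 11 and 3 without CK-p25 replicate 3. Over all genes tested, in the fit of all libraries, 17.6% rose and 13.7% fell. Optn, which encodes the autophagy receptor optineurin, averaged 7.98 FPKM in CK-p25 and 1.23 FPKM in CK (1.99 ± 0.16 SE, adjusted p = 8.94e-05), and Chmp4b, an ESCRT subunit that repairs membranes, was at 0.85 ± 0.15. The falls were Prkaa1, a catalytic subunit of AMPK (-0.66 ± 0.19 SE), and Tfe3, a transcription factor of lysosomal genes (-0.41 ± 0.08 SE). Of this list, 9 rose in CK-p25 PU.1 cKO against CK and 1 fell (11 and 3 without CK-p25 replicate 3, median 0.10; all genes 17.8% and 13.3%). At 3 months 2 of 24 tested were higher and 5 lower, or 2 and 0 without labelled control replicate 1 (median 0.10), where 12.4% of all genes tested were higher and 17.8% lower.

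Interferon-induced genes were a list of 15, set beside Lgals3bp and Lgals9. In CK-p25 against CK, 14 of 15 rose and 0 fell, with a median of 2.88 (17.6% of all genes rose and 13.7% fell), and the gene that did not pass was Ifi44 (2.15 ± 0.84 SE, adjusted p = 0.0874). Irf7, the transcription factor that amplifies interferon responses, averaged 111 FPKM in CK-p25 and 4.49 FPKM in CK (4.34 ± 0.31 SE, adjusted p = 4.38e-05). Oasl2, an antiviral gene, averaged 84.1 FPKM in CK-p25 and 3.30 FPKM in CK (4.27 ± 0.24 SE). Again 14 rose in CK-p25 PU.1 cKO against CK and 0 fell, with a median of 3.02 (all genes 17.8% and 13.3%). At 3 months 1 of 14 tested was higher and 1 lower, with a median of -0.06 (all genes 12.4% and 17.8%). In CK-p25 PU.1 cKO against CK-p25 no gene of these 4 lists passed the test, and the medians lay between -0.15 and 0.08.

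**Figure D5:**
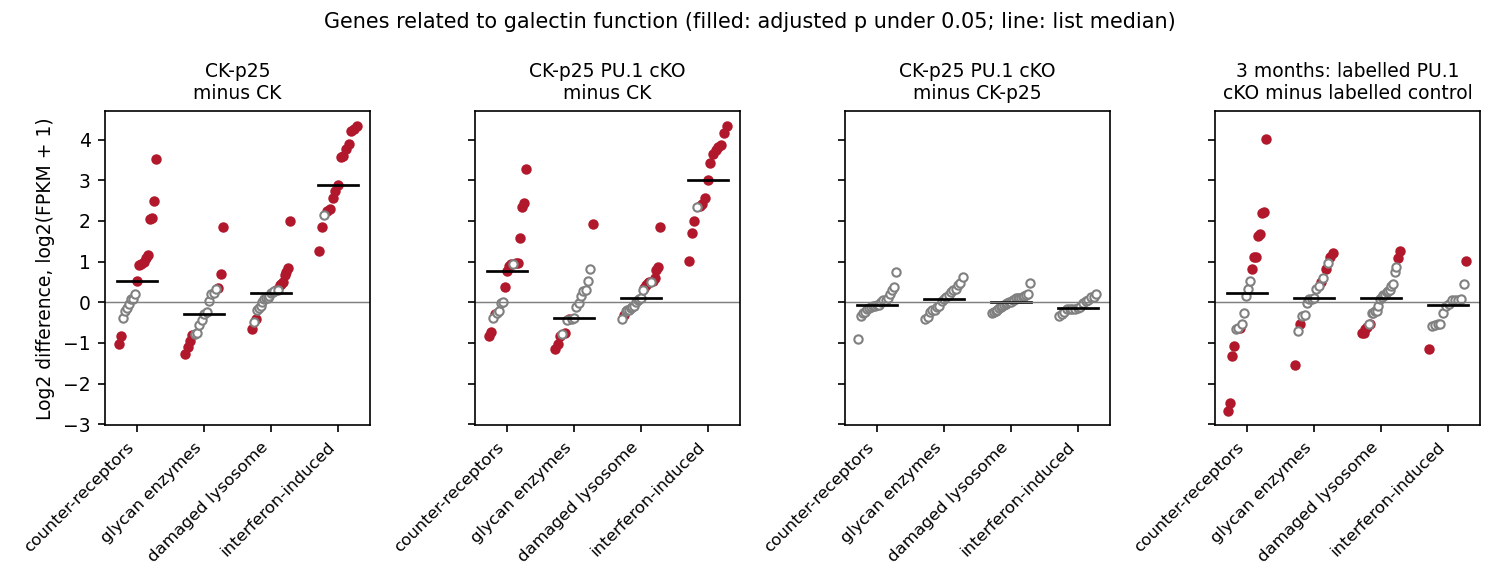
Log2 difference of each tested gene of the 4 lists in the 4 comparisons on the log2(FPKM + 1) scale, filled at a limma adjusted p under 0.05, with the list median as a line. The interferon-induced list lies highest in both comparisons with CK, with medians of 2.88 in CK-p25 and 3.02 in CK-p25 PU.1 cKO, and all 4 lists lie near 0 in CK-p25 PU.1 cKO against CK-p25.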

How the data were processed

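The authors deposited FPKM values per gene in a table for each age. The submitters' processing notes name TopHat, Bowtie, Cufflinks 2.0.0 and the mm9 build. Libraries were made with the SMART-Seq v4 and Nextera XT kits, per the labels' protocols, which do not mark strand, so reads of a gene and of a gene that overlaps it antisense are mixed. The 4 chromatin samples were not analysed here.

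Values were analysed as log2(FPKM + 1), a scale that understates the change of low genes, over genes that averaged 1 FPKM or more. The comparisons used limma 3.58.1 (R 4.3.3, mean-variance trend, two-sided, Benjamini-Hochberg adjustment over all genes tested, threshold 0.05), with the 9 libraries at 4.5 months in 1 fit and the 6 at 3 months in another. No test was made across the tables. The fit was also run on simulated data with independent libraries and normal spread. Such data lack the outlying libraries seen here, so that run does not vouch for the calls. The labels do not state that libraries are each from another animal, and p-values then reflect only the spread over these libraries, which may be technical.

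The 5 genes and the lists were chosen with earlier results of these data known. Named were the 5 genes, Spi1, for each of the 5 the 4 genes of highest correlation, and, of each list described, the 2 largest rises and falls in CK-p25 against CK. Some genes under this rule are not reported here. Alternatives were another pseudocount, other filters, other scalings, no trend, fewer libraries and the replicate block. Of the gene symbols, 23815 matched RefSeq. Markers of oligodendrocytes, neurons, endothelium and lymphocytes, as summed FPKM at 4.5 months, were 137 to 390, 2.99 to 45.4, 12.1 to 22.1 and 3.89 to 45.4 in CK-p25 PU.1 cKO, 115 to 553, 2.07 to 32.4, 9.04 to 30.5 and 19.4 to 23.9 in CK-p25, and 125 to 192, 5.31 to 16.0, 15.3 to 19.2 and 28.7 to 34.9 in CK. At 3 months they were 97 to 160, 1.91 to 6.10, 19.0 to 20.5 and 51.0 to 67.6 in libraries labelled PU.1 cKO, and 71.3 to 101, 1.72 to 5.05, 6.79 to 19.4 and 12.5 to 20.9 in libraries labelled control.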

Additional observations from a re-analysis of the deposited data

How the results depend on the processing

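Of the log2 differences of the 5 genes under all alternatives, 302 kept their direction and their side of the threshold, 4 kept their direction and lost the call, and 14 changed sign. The lost calls were those of Lgals1 in CK-p25 PU.1 cKO against CK and of Lgals3 at 3 months, each without a single library, and the cause was not tested. The sign changed only for differences that had not passed. In CK-p25 against CK, Lgals8 was at -0.013 with median centring, -0.137 with quantile normalization and between -0.078 and 0.083 when a library was left out, and Lgals9 was at -0.093 with quantile normalization. In CK-p25 PU.1 cKO against CK, Lgals9 was at -0.007 with median centring, -0.377 with quantile normalization and between -0.068 and 0.118 when a library was left out. In CK-p25 PU.1 cKO against CK-p25, Lgals3bp was at 0.032 with quantile normalization and between -0.178 and 0.061 when a library was left out. At 3 months Lgals9 was between -0.138 and 0.24 when a library was left out, and quantile normalization moved the median of all genes by 0.122.

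With the replicate block, 2, 3, 0 and 3 of the 5 genes passed in the 4 comparisons, as without it, and no call changed. The block moved the genes called to 1903 higher and 1404 lower in CK-p25 against CK, and to 1367 higher and 2014 lower at 3 months. Same-numbered libraries deviated together only in part (r of 0.166, 0.158 and -0.049 at 3 months), so the numbers were not taken as pairs. Leaving out CK-p25 replicate 3 or labelled control replicate 1 for the lists was chosen after seeing the data. The read depth is unknown, and Lgals1 and Lgals9 did not pass in CK-p25 against CK with 3 libraries a group.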
